A study of Homo sapiens with 4 samples.

Results

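Cadherins, vimentin, fibronectin and the ZEB, Snail and Twist transcription factors were measured in a pair of human melanoma lines, SK-MEL-28 and A375, both established in culture. The set was chosen by gene name and holds 10 of the 17755 genes listed. It comprises the cadherins CDH1, CDH2 and CDH3, the mesenchymal genes VIM and FN1, and the factors ZEB1, ZEB2, SNAI1, SNAI2 and TWIST1. Each line was transfected with a control siRNA (siNC) or with siRNA against the long noncoding RNA LINC00622 (siLINC00622), for 6 h without serum and then 24 h with serum. Poly(A) RNA was sequenced in 4 libraries, 1 per condition, so neither knockdown has a replicate within its line. The labels name the tissue as melanoma tissue beside the cell line, and the libraries are treated here as those cell lines. Library totals lay between 31269923 and 36384819 counts. The targeted LINC00622 had 309 counts in SK-MEL-28 siNC and 135 in SK-MEL-28 siLINC00622 (log2 ratio -1.21, 95% counting interval -1.53 to -0.93). The same counts in A375 were 135 and 86 (log2 ratio -0.84, interval -1.27 to -0.46).

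Epithelial cells hold each other through E-cadherin (CDH1), and in the epithelial-mesenchymal transition this gives way to N-cadherin (CDH2), vimentin and fibronectin. ZEB, Snail and Twist proteins drive that exchange in carcinomas, and the ZEB and Snail proteins bind E-box sequences of the CDH1 promoter. Melanocytes come from the neural crest and are no epithelium, and their version of the program is known as a phenotype switch. There, ZEB2 and SNAI2 are known from the differentiated melanocyte and ZEB1 and TWIST1 from the undifferentiated, invasive melanoma cell.

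The lines differed in which members of the factor families they carried. SK-MEL-28 had high ZEB2 and SNAI2 with almost no ZEB1. A375 had ZEB1 and SNAI1 with some ZEB2 and little SNAI2. CDH1, CDH3 and FN1 were also higher in SK-MEL-28, CDH2 was higher in A375, and VIM was abundant in both. Levels are given as the deposited FPKM, which is scaled for gene length and library size, and differences as log2 ratios. The lines were compared with edgeR's quasi-likelihood test over the 4 libraries with treatment as a covariate, two-sided, with p-values adjusted over 16742 genes. In SK-MEL-28, 5 of the 10 genes were higher and 4 lower at an adjusted p below 0.05. Among all genes tested, 33.4% were called higher and 34.3% lower, so most genes separated these lines and the count itself says little about the set. Each line is represented by 2 libraries that differ in treatment, and p-values measure the spread between these libraries. In bulk RNA, fewer cells with a transcript and less transcript per cell cannot be told apart.

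**Figure D1:**
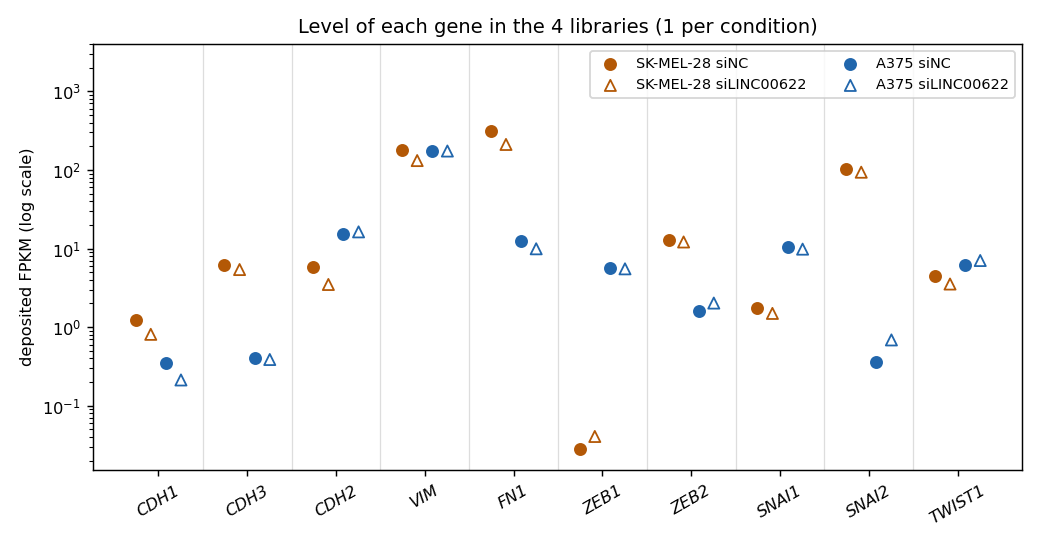
Deposited FPKM (log scale) of the 10 genes in each of the 4 libraries, 1 point per library. ZEB1 lies near 0.03 FPKM in SK-MEL-28 and above 5 in A375, SNAI2 is placed the other way round, and VIM lies between 131 and 181 in all 4 libraries.

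ZEB1, a zinc finger repressor of CDH1, had the lowest ratio of the 10 genes in SK-MEL-28 over A375. SK-MEL-28 gave an FPKM of 0.028 (siNC) and 0.041 (siLINC00622), from 8 and 12 counts. In A375 the FPKM was 5.72 and 5.51, from 1546 and 1735 counts. Both SK-MEL-28 libraries were thus at the edge of detection and both A375 libraries were well above it. The log2 difference, SK-MEL-28 minus A375, was -7.16 (SE 0.19, adjusted p = 3.96e-07), rank 208 from the lowest of the 16742 genes. ZEB1 lies on the plus strand of chromosome 10 of GRCh38 from 31318495 to 31529814. ZEB1-AS1, which overlaps it on the opposite strand, had 2, 1, 61 and 85 counts in SK-MEL-28 siNC, SK-MEL-28 siLINC00622, A375 siNC and A375 siLINC00622. The strandedness of the counting is not stated, so reads of such antisense pairs cannot be told apart.

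ZEB2, the paralogue of ZEB1, was placed the other way round. Its FPKM was 12.9 and 12.1 in SK-MEL-28 (siNC, then siLINC00622) and 1.60 and 2.02 in A375. The 2 ranges do not overlap, and the log2 difference was 2.97 (SE 0.13, adjusted p = 2.56e-06), or 7.81-fold. ZEB2 (chromosome 2, minus strand, 144364364 to 144524583) made up 99.78% and 99.67% of the summed FPKM of the pair in SK-MEL-28, against 21.85% and 26.85% in A375. A375 thus retained some ZEB2, whereas SK-MEL-28 retained hardly any ZEB1. The FPKM of ZEB2 rests on a length of 26111 bases, 2.72 times its longest coding transcript. With the longest coding transcript as the length, a choice made once the values were known, the ZEB2 share in A375 was 35.57% and 42.01%.

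The promoters of ZEB1 and VIM are shown because these genes stand at the far end and at the middle of the line difference. RefSeq windows of the 250 bases before a transcript start (GRCh38.p14) were given for 5 of the 10 genes: CDH2, VIM, ZEB1, ZEB2 and FN1. CDH1, CDH3, SNAI1, SNAI2 and TWIST1 had no window. The sequences below are read 5′ to 3′ on the plus strand, with the E-box words bound by ZEB and Snail proteins, CACCTG or its reverse complement CAGGTG, in capitals.
ZEB1, chr10:31318167-31318416: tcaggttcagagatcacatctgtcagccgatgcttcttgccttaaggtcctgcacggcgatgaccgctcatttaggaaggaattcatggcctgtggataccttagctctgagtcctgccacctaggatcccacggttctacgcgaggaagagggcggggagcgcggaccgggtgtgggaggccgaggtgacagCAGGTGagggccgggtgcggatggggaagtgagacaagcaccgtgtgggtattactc
VIM, chr10:17227991-17228240: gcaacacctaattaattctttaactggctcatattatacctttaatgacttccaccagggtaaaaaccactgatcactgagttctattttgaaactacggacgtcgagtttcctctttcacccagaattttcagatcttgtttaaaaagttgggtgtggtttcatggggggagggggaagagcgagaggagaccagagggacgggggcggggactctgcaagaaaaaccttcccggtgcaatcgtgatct
The ZEB1 window shown, the first of its 7 by position, holds 1 match, which begins 57 bases before the start. The VIM window holds none. Another ZEB1 window, chr10:31318966-31319215, holds 2 matches, and that at chr10:31319518-31319767 holds none. Over the 12 windows of the 5 genes, of which 7 belong to ZEB1, 2 held a match and both were of ZEB1. Of all 35116 promoter windows, 17.5% held the word on either strand. A match is a description of the letters and says nothing of binding.

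The Snail pair also divided between the lines, with little SNAI2 in A375, where both ZEB genes were present. SNAI2 (Slug), a neural crest factor on the minus strand of chromosome 8 (48917604 to 48921740), had an FPKM of 101 and 93.5 in SK-MEL-28 and of 0.361 and 0.687 in A375. These values come from 11021 and 10480 counts in SK-MEL-28 against 37 and 82 in A375. No other gene of the set differed as much, with a log2 difference of 7.70 (SE 0.23, adjusted p = 6.07e-07), or 207-fold, rank 153 from the highest. SNAI1 (Snail; chromosome 20, plus strand, 49982999 to 49988886) had an FPKM of 1.75 and 1.49 in SK-MEL-28 and of 10.4 and 9.82 in A375. Its log2 difference was -2.47 (SE 0.16, adjusted p = 1.7e-05). SNAI2 made up 98.30% and 98.43% of the summed FPKM of the pair in SK-MEL-28 against 3.348% and 6.539% in A375.

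TWIST1, a basic helix-loop-helix factor of mesoderm and neural crest, differed least among the factors. Its FPKM was 4.46 and 3.53 in SK-MEL-28 against 6.18 and 7.03 in A375. The ranges do not overlap, but the log2 difference was -0.56 (SE 0.18, adjusted p = 0.0264). The call was lost with DESeq2 (adjusted p = 0.148). When a library was left out, 1 line kept a single library, so the treatment term was dropped as well and the pair of the other line supplied the spread. In these fits the call was lost without SK-MEL-28 siLINC00622 (-0.40, adjusted p = 0.153), A375 siNC (-0.66, adjusted p = 0.069) or A375 siLINC00622 (-0.44, adjusted p = 0.178). Without SK-MEL-28 siNC the value was -0.73 (adjusted p = 0.0176), with the spread taken from the A375 pair.

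Among the cadherins, E-cadherin was low in both lines. CDH1 had an FPKM of 1.24 and 0.809 in SK-MEL-28 and of 0.353 and 0.213 in A375, from 249, 168, 67 and 47 counts. It was 4.10-fold higher in SK-MEL-28 (log2 difference 2.04, SE 0.20, adjusted p = 0.00011). CDH3 (P-cadherin) had an FPKM of 6.10 and 5.40 in SK-MEL-28 against 0.4002 and 0.387 in A375. The libraries of the lines do not overlap for either gene, and the CDH3 difference was 16.4-fold (log2 4.04, SE 0.14, adjusted p = 9.47e-07). Both genes lie on the plus strand of chromosome 16, CDH3 from 68636189 to 68722616 and CDH1 from 68737225 to 68835548, with 14608 bases between them.

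CDH2 (N-cadherin), which joins melanoma cells to fibroblasts and endothelium, was the main cadherin of A375. It had an FPKM of 15.5 and 16.3 in A375 and of 5.85 and 3.49 in SK-MEL-28. Its log2 difference was -1.64 (SE 0.19, adjusted p = 0.000245), or 3.11-fold lower in SK-MEL-28. Of the summed FPKM of the 3 cadherins, CDH2 took 95.37% and 96.45% in A375. In SK-MEL-28, CDH3 took 46.23% and CDH2 44.38% with siNC, and 55.70% and 35.95% with siLINC00622. With the longest coding transcript as the length, CDH2 led CDH3 in the SK-MEL-28 siNC library, with 55.11% against 37.57%, so their order there depends on the length used. CDH1 took 9.387% and 8.349% in SK-MEL-28 against 2.167% and 1.260% in A375.

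**Figure D2:**
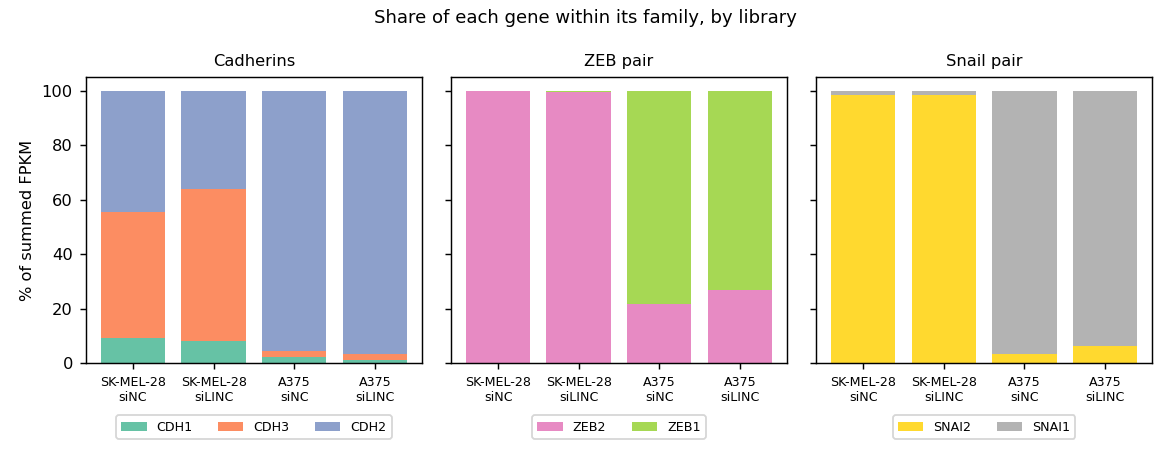
Share of each gene in the summed FPKM (percent, 1 stacked bar per library) of the 3 cadherins, the ZEB pair and the Snail pair. ZEB2 and SNAI2 fill over 98% of their bars in SK-MEL-28, and CDH2 fills over 95% of its bar in A375.

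The mesenchymal genes did not follow one line. VIM, the intermediate filament protein of mesenchymal cells (chromosome 10, plus strand, 17228259 to 17237593), had an FPKM of 181 and 131 in SK-MEL-28 and of 175 and 174 in A375. The ranges overlap, and the log2 difference was -0.004 (SE 0.12, adjusted p = 0.976). In all 4 libraries its level was at or above that of 98.9% of the listed genes. VIM-AS1, on the opposite strand, had between 69 and 84 counts, and VIM itself between 23248 and 32743.

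FN1, the matrix protein fibronectin (chromosome 2, minus strand, 215360440 to 215436172), was the most abundant of the 10 genes in SK-MEL-28. Its FPKM was 315 and 211 there and 12.3 and 9.92 in A375, without overlap. The log2 difference was 4.72 (SE 0.10, adjusted p = 2.54e-07), or 26.3-fold. FN1 alone took 0.5422% and 0.3629% of all counts of the SK-MEL-28 libraries, against 0.0211% and 0.0171% in A375. The line with the higher E-cadherin was therefore also the line with the higher fibronectin.

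By FPKM, the order in the SK-MEL-28 siNC library was FN1, VIM, SNAI2, ZEB2, CDH3, CDH2, TWIST1, SNAI1, CDH1 and ZEB1. In A375 siNC it was VIM, CDH2, FN1, SNAI1, TWIST1, ZEB1, ZEB2, CDH3, SNAI2 and CDH1. Neighbours whose order turned between the libraries of a line were CDH2 and TWIST1 in SK-MEL-28 and CDH3 and SNAI2 in A375. With the longest coding transcript as the length, 2 genes exchanged ranks in each of 3 libraries and none in A375 siLINC00622.

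For some genes the line difference was not the same within each treatment, beyond counting error. For CDH2 it was -1.23 (counting interval -1.31 to -1.14) between the siNC libraries and -2.06 (-2.16 to -1.96) between the siLINC00622 libraries. VIM was 0.23 (0.21 to 0.25) and -0.24 (-0.26 to -0.21) in the same order, so its direction turned. SNAI2 was 8.24 (7.85 to 8.82) and 7.22 (6.94 to 7.58). The paired intervals were also apart for FN1, at 4.86 (4.83 to 4.90) and 4.57 (4.54 to 4.61), for ZEB2, at 3.19 and 2.74, and for TWIST1, at -0.29 and -0.82. Those of CDH1, CDH3, ZEB1 and SNAI1 overlapped. The intervals cover counting error only, and with 1 library per condition the difference between the treatments could not be tested. How many of all genes have paired intervals apart was not counted, and such intervals narrow with the count.

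**Figure D3:**
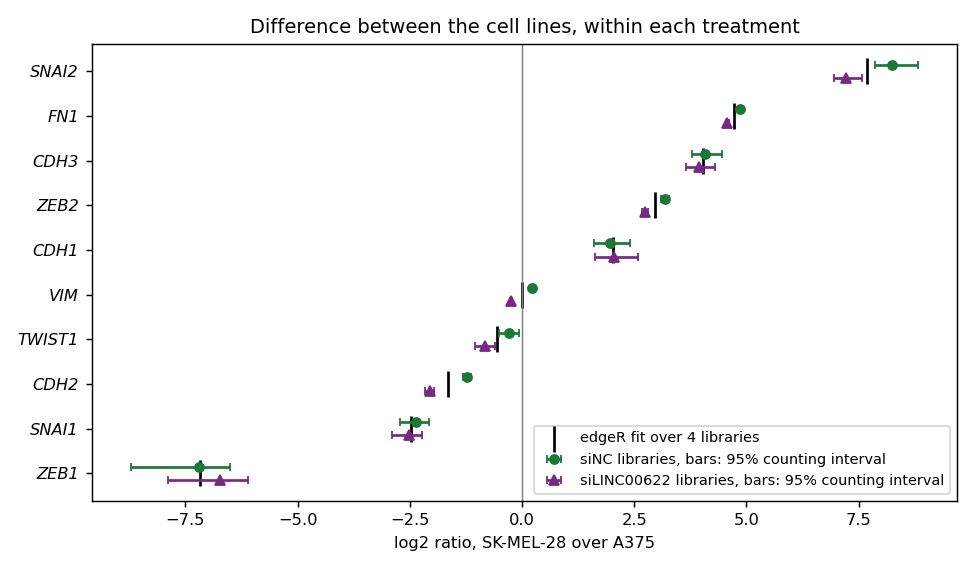
Log2 ratio of SK-MEL-28 over A375 for each gene, between the siNC libraries (circles) and between the siLINC00622 libraries (triangles) with 95% counting intervals, and the fitted value (black bar). SNAI2, FN1, CDH3, ZEB2 and CDH1 lie to the right, ZEB1, SNAI1, CDH2 and TWIST1 to the left, and VIM lies on both sides of 0.

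Genes around the set were counted in lists written from general knowledge, while earlier results of these data were known. Each count stands beside the 33.4% of all genes called higher and 34.3% called lower in SK-MEL-28. The median log2 line difference over all genes tested was -0.04, and over the 10 genes it was 1.02. All 9 melanocytic state genes were higher in SK-MEL-28, with a median of 8.57. DCT and TYR, enzymes of melanin synthesis, differed by 9.16 and 9.13 (adjusted p = 1.69e-07 and 2.03e-07), and the FPKM of TYR in A375 was 0.210 and 0.233. SOX10, the neural crest factor that defines the lineage, was present in every library, with an FPKM of 153 and 150 in SK-MEL-28 and of 118 and 149 in A375. A375 thus held the lineage factor with its pigment enzymes close to 0.

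Invasive state genes were mostly higher in A375, with 9 of 12 lower and 2 higher in SK-MEL-28 and a median of -2.46. AXL, a receptor tyrosine kinase, had an FPKM of 0.818 and 0.553 in SK-MEL-28 and of 100 and 98.9 in A375 (log2 -7.02, adjusted p = 2.75e-07). WNT5A, a noncanonical Wnt ligand, differed by -6.62 (adjusted p = 3.87e-07). TEAD1, a partner of YAP, went the other way, at 1.62 (adjusted p = 9.71e-06).

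Further EMT transcription factors were lower in SK-MEL-28 for 9 of 10 and higher for 1, with a median of -2.33. That median is also -2.33 when GSC, the 1 factor without counts in SK-MEL-28 and named here after its values were seen, is set at a floor of 3 counts per library. TWIST2, the paralogue of TWIST1, had 1 count in each SK-MEL-28 library against 310 and 348 in A375. Both TWIST2 and GSC passed the count minimum through A375 alone. PRRX1, a homeobox factor of mesenchyme, had 16 and 17 counts against 1261 and 1932 (log2 -6.39, adjusted p = 4.1e-07). SOX4 was the factor higher in SK-MEL-28 (log2 1.82, adjusted p = 1.2e-05).

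Mesenchymal genes other than VIM and FN1 were lower in SK-MEL-28 for 10 of 16 and higher for 3, with a median of -1.44. S100A4, a calcium-binding protein of motile cells, differed by -7.53 (adjusted p = 3.16e-07), and FBN1, the microfibril protein fibrillin, by -6.18 (adjusted p = 3.12e-07). LOX, which crosslinks collagen, was higher in SK-MEL-28 with FN1, by 3.82 (adjusted p = 9.86e-06).

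More of the epithelial genes were higher in A375 than in SK-MEL-28. SK-MEL-28 had 2 of the 15 tested higher and 8 lower, with a median of -1.09. ESRP1, an epithelial splicing regulator, was higher, with an FPKM of 25.5 and 25.1 against 0.276 and 0.226 (log2 6.83, adjusted p = 2.44e-07). DSG2, a desmosomal cadherin, was the other, at 1.22 (adjusted p = 0.000548). Its FPKM was 20.3 (siNC) and 7.03 (siLINC00622) in SK-MEL-28 against 7.78 and 4.34 in A375, so the ranges overlap. PKP2 and CLDN1, a desmosome and a tight junction protein, had 8 and 4, and 9 and 8 counts in SK-MEL-28 against 371 and 328, and 160 and 196 in A375. Their ratios of -5.68 and -4.19 (adjusted p = 4.94e-06 and 1.74e-05) rest on fewer than 10 counts in SK-MEL-28, and both genes passed the count minimum through A375. Of 8 markers of keratinocytes, leukocytes and endothelium, 1 was listed, KRT14, with 6 and 2 counts in SK-MEL-28 against 494 and 504 in A375 (log2 -6.75, adjusted p = 3.48e-06). KRT14 likewise passed the count minimum through A375 alone. It moved with the epithelial genes that were higher in A375, and its part in them was not tested.

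The other classical cadherins and relatives held 4 listed genes of 19, all lower in SK-MEL-28, with a median of -3.10. CDH13 (T-cadherin), which is anchored in the membrane by a lipid, had 12 and 13 counts in SK-MEL-28 against 2294 and 2962 in A375 (log2 -7.52, adjusted p = 2.55e-07). CDH12 differed by -4.49 (adjusted p = 5.33e-06). Partners of cadherins at the adherens junction were closer to each other, with 6 of 10 higher and 3 lower and a median of 0.63. AFDN (afadin), which links nectins to actin, was higher by 1.65 (adjusted p = 9.66e-06), and the adhesion molecule NECTIN3 was lower, at -1.66 (adjusted p = 0.000118). Cofactors and regulators of ZEB and Snail proteins had a median of -0.23, with 2 of 16 higher and 6 lower, the latter close to the share of all genes. LOXL2 and AJUBA, partners of Snail, were the lowest, at -3.64 and -3.19 (adjusted p = 3.11e-05 and 1.01e-06).

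**Figure D4:**
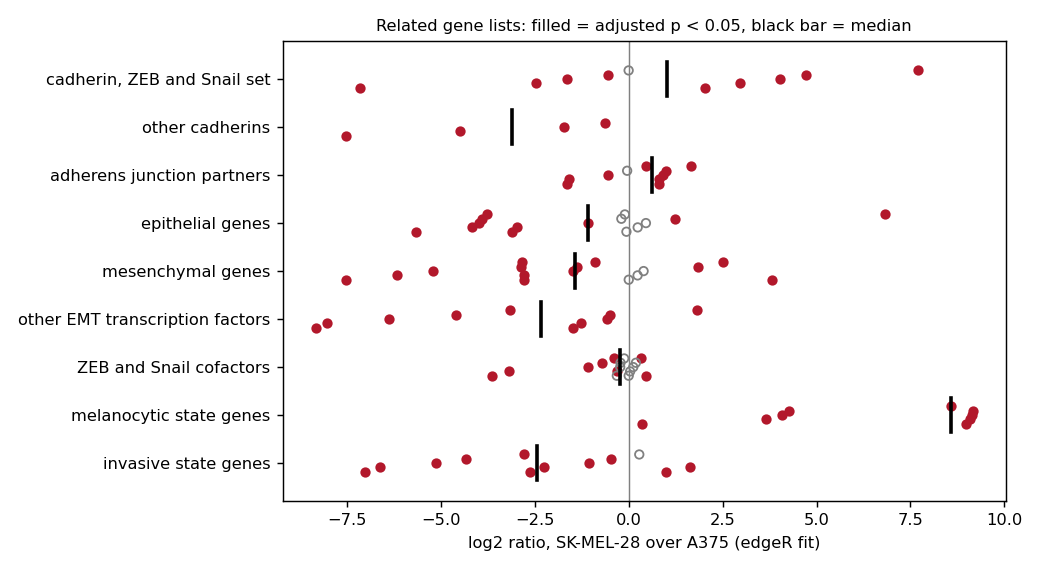
Log2 ratio of SK-MEL-28 over A375 (edgeR fit) for each gene of the set and of 8 related lists, 1 point per gene, filled at an adjusted p below 0.05, with the list median as a black bar. The 9 melanocytic state genes all lie to the right, and the medians of other cadherins, epithelial genes, mesenchymal genes, other EMT factors and invasive state genes lie left of -1.

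Knockdown of LINC00622 was then examined gene by gene. In SK-MEL-28, 9 of the 10 log2 ratios of siLINC00622 over siNC were below 0 and 1 was above. N-cadherin, E-cadherin and fibronectin had the lowest ratios, and none of the 10 had an interval above 0. Ratios were scaled by TMM within the line with a prior count of 2, and 95% Clopper-Pearson intervals cover counting error. Intervals lay below 0 for 8 genes and above 0 for 0, against 24% and 22.9% of all 15442 genes with at least 10 counts. Such intervals narrow with the count, which is high for FN1, VIM, ZEB2 and SNAI2, whereas the shares include genes with few counts. The intervals of SNAI2 and ZEB2 lay below 0 at ratios of only -0.10 and -0.07. Past 1.5-fold, 2 genes were lower and 0 higher, against 6.49% and 4.56% of all genes. The median of the 10 ratios was -0.27, and that of all genes was -0.004.

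CDH2 had 1663 counts in the siNC library of SK-MEL-28 and 1022 after knockdown, a ratio of -0.73 (-0.85 to -0.62), or 1.66-fold lower. CDH1 had 249 and 168 counts, a ratio of -0.59 (-0.89 to -0.31), or 1.51-fold lower, at the edge of the fold limit and under it in 3 of 8 alternatives. FN1 had 179512 and 123970 counts, a ratio of -0.565 (-0.576 to -0.555), or 1.48-fold lower and just short of that limit. E- and N-cadherin were thus both lower in the knockdown library, and no exchange of one for the other was seen. VIM followed with -0.45 (-0.47 to -0.42) and TWIST1 with -0.32 (-0.58 to -0.07). CDH3, SNAI2 and ZEB2 were between -0.16 and -0.07. ZEB1, at 8 and 12 counts, had a ratio of 0.46 with an interval from -0.86 to 2.05, and a difference was not detectable at this depth. SNAI1 had a ratio of -0.21 (-0.65 to 0.21).

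In A375 the ratios were divided, with 5 below and 5 above 0 and a median of -0.02 beside 0.004 for all genes. Intervals lay below 0 for 2 genes and above 0 for 4, against 22% and 23.8% of all 16021 genes with at least 10 counts. Past 1.5-fold, 1 gene was higher and 1 lower, against 4.52% and 4.34% of all genes. SNAI2 had 37 and 82 counts, a ratio of 0.91 (0.36 to 1.54), or 1.87-fold higher, and stayed far below its SK-MEL-28 level. CDH1 had 67 and 47 counts, a ratio of -0.70 (-1.29 to -0.16), or 1.62-fold lower. Both genes had fewer than 100 counts, and neither passes a filter at that depth. ZEB2 had 1305 and 1922 counts (0.35, 0.25 to 0.45) and TWIST1 386 and 511 (0.19, 0.002 to 0.39). FN1 was at -0.30 (-0.35 to -0.25) and CDH2 at 0.08 (0.02 to 0.14). The intervals of VIM, ZEB1, SNAI1 and CDH3 held 0, with ratios between -0.08 and 0.003.

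**Figure D5:**
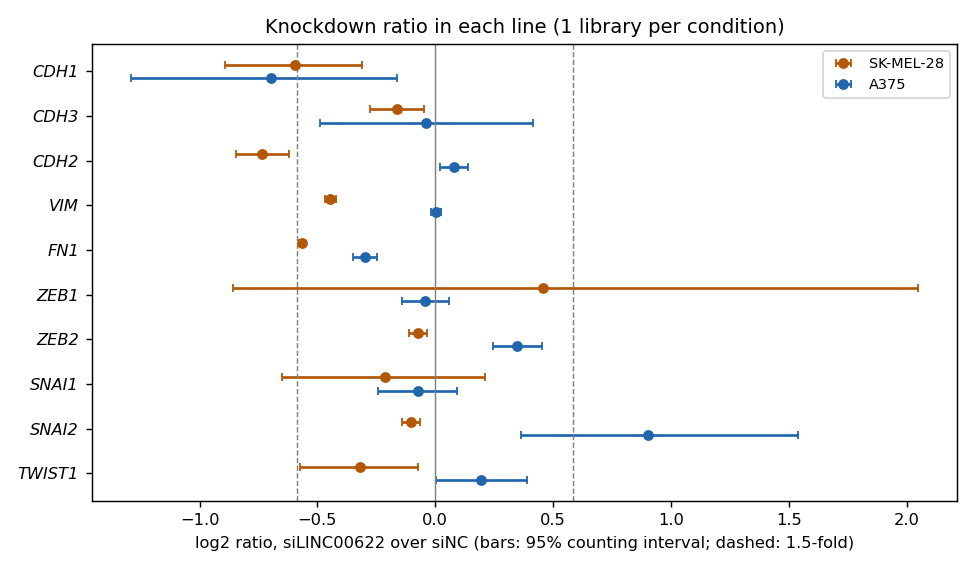
Log2 ratio of siLINC00622 over siNC for each gene in either line, 1 library per condition, with 95% counting intervals and dashed lines at 1.5-fold. CDH1 and FN1 lie left of 0 in both lines, and CDH2, ZEB2, SNAI2 and TWIST1 lie left in SK-MEL-28 and right in A375.

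By the screening criteria of the study (fold change above 1.5 and p below 0.05, applied here at an assumed dispersion of 0.1), 0 of the 10 genes passed in either line, against 0.608% (SK-MEL-28) and 0.304% (A375) of all 17755 genes. The targeted LINC00622 did not pass them in either line, and its adjusted p across the lines was 0.103, so these tests also miss the knockdown itself. The knockdown was also tested over the 4 libraries with the line as a block, so that each siLINC00622 library is paired with the siNC library of its line. With 1 residual degree of freedom, edgeR called 0 of the 10 genes and 0.436% of all genes. An unadjusted p below 0.05 was reached by 2 of the 10, beside 2420 of all 16742 genes tested. FN1 had a log2 change of -0.42 (SE 0.09, unadjusted p = 0.00204, adjusted p = 0.11), lower in both lines. CDH1 had -0.64 (SE 0.20, unadjusted p = 0.0146, adjusted p = 0.218), also lower in both. DESeq2 called 1 of the 10, FN1, at -0.42 (adjusted p = 0.0164), and the range of its adjusted p over 7 alternatives was 0.0164 to 1. The other 8 had unadjusted p-values between 0.116 and 0.883.

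Of the surrounding lists, 2 of 16 mesenchymal genes were called across the lines, both higher with siLINC00622. ITGA5, the fibronectin receptor subunit alpha 5, had 801 and 1538 counts in SK-MEL-28, then 6363 and 11857 in A375 (siNC, then siLINC00622; log2 0.80, adjusted p = 0.0409). FBN1 had 19 and 37, then 1355 and 3372 counts (log2 1.097, adjusted p = 0.0409). Each call held in 3 of 7 alternatives and was lost in the others, with an adjusted p of up to 1 without the line as a block. No gene of the other lists was called across the lines. By the study's criteria in SK-MEL-28, 1 of 15 epithelial, 1 of 16 mesenchymal and 1 of 10 further EMT factor genes passed. So did 1 of 9 melanocytic and 2 of 12 invasive state genes, against 0.608% of all genes. In A375, 0 genes of these lists passed. In A375, 6 of the 16 mesenchymal genes were past 1.5-fold higher and 0 lower, with a median of 0.39, beside 4.52% and 4.34% of all genes. In SK-MEL-28, 2 were higher and 3 lower, with a median of 0.02, beside 4.56% and 6.49% of all genes. DSG2 had the lowest ratio of the epithelial genes in both lines, with 6379 and 2279 counts in SK-MEL-28 (-1.51) beside 2309 and 1500 in A375 (-0.83), and missed the threshold across the lines (adjusted p = 0.0509). Among the invasive state genes, 4 of 12 were past 1.5-fold lower in SK-MEL-28 (6.49% of all genes), led by NGFR (251 and 54 counts, -2.21) and CCN1 (998 and 318 counts, -1.68), and 0 were in A375.

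The siRNAs were compared with the 3′ UTRs of the set, because a guide strand can act on transcripts that match its positions 2 to 8. The supplement lists 2 siRNAs against LINC00622, and which of them was used for sequencing is not given in the sources used here. Their target sequences are shown with the word that pairs with guide positions 2 to 8 in capitals.
siLINC00622_1: ccctaaagaaaGTGAGAAa
siLINC00622_2: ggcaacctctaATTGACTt
In the longest annotated 3′ UTR of each gene (GENCODE 29), siLINC00622_1 had 1 match, in ZEB1, and 0 in the other genes, and siLINC00622_2 had 0 in all of them. The ZEB1 match lies on the plus strand of GRCh38 and is present in 3 coding transcripts.
ZEB1, chr10:31527743-31527769: tttttaaaatGTGAGAActtctgcact
In A375, where ZEB1 was expressed, its knockdown ratio was -0.04 (-0.14 to 0.06). CDH1 and CDH2, the genes past 1.5-fold lower in SK-MEL-28, held no match to either siRNA. A match describes the letters and shows no binding. Only these words in the longest 3′ UTR of each gene were searched, and effects of the siRNAs on other transcripts were not tested.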

How the data were processed

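RNA-Seq was analysed in 4 libraries, SK-MEL-28 and A375 with siNC or siLINC00622, grouped by the line and treatment in the labels. Paired-end reads of poly(A) RNA were processed by the authors, whose notes name the build hg19 and the tools HISAT2, TopHat2, Bowtie2 and HISAT without versions or roles; the counter is not given in the sources used here. The count table that was deposited holds unnormalized whole numbers for each gene. The deposited CPM values are relative to all reads of a library and gave each library's total. The deposited FPKM values are also scaled by a gene length, which differs from that of single transcripts. The 4 TPM columns were not used.

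Gene positions are from GENCODE 29 (GRCh38), matched by gene identifier, and promoter windows from RefSeq (GRCh38.p14). Neither is the build of the files, from which no coordinates were used. Ratios within a line used TMM on library totals, and 16742 genes with at least 10 counts in 1 library entered the fits of edgeR 4.0.16 (R 4.3.3), with Benjamini-Hochberg adjustment. The SE is the log2 difference divided by the square root of its F statistic, and for ZEB1 it is narrower than counting error allows. Alternatives used DESeq2 1.42.0, limma 3.58.1, other scalings, filters, prior counts and libraries left out. With 1 library per condition no interval covers biological spread, and reads carry no molecular identifiers. Sequences and shares were computed in Python 3.11.15. The scripts were tested on simulated data. Named genes are the 10 of the set, LINC00622 and, from each list, the 2 highest and 2 lowest ratios among genes that reach 50 counts, of which some are printed. The 10 genes and the lists were chosen with earlier results of these data known.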

Additional observations from a re-analysis of the deposited data

Results flagged for a closer look

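For 4 genes the knockdown ratio had opposite directions in the lines, with counting intervals on opposite sides of 0: lower with siLINC00622 in SK-MEL-28 and higher in A375. The difference between the log2 ratios, SK-MEL-28 minus A375, was -0.81 for CDH2, -0.42 for ZEB2, -1.01 for SNAI2 and -0.52 for TWIST1. With 1 library per condition this difference was not tested. It draws on the same counts as the line differences within each treatment. Among genes with at least 10 counts, intervals lay below 0 for 24% in SK-MEL-28 and above 0 for 23.8% in A375, each line taken alone. The share of all genes with opposite intervals in the lines was not counted. The SNAI2 value rests on 37 and 82 counts in A375. In A375 the interval of CDH2 (0.02 to 0.14) and that of TWIST1 (0.002 to 0.39) begin close to 0.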

How the results depend on the processing

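The line difference was called for CDH1, CDH2, CDH3, ZEB1, ZEB2, SNAI1, SNAI2 and FN1 in all 11 alternatives and for VIM in 0 of 11. In 4 of these a library was left out and the treatment term with it, so that 1 line had a single library and the spread came from the pair of the other line alone. TWIST1 was lost with DESeq2 and in some but not all of the fits with a library left out, as given above. On log2(FPKM + 1), the difference was -2.68 for ZEB1, 0.65 for CDH1, 2.27 for CDH3, 2.27 for ZEB2 and 6.02 for SNAI2, since the pseudocount understates low genes. No called value changed sign.

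Of the 10 genes, 2 were past 1.5-fold in SK-MEL-28. This was 1 with DESeq2 size factors, with FPKM and a pseudocount of 1, and with a prior count of 5, where CDH1 went under the limit. In A375 it was 0 rather than 2 with FPKM and with at least 100 counts. Over all genes in SK-MEL-28, 200 were higher and 294 lower with FPKM, 278 and 515 with at least 100 counts, and 1081 higher without a filter. In A375 the numbers were 131 and 171 with FPKM, 320 and 225 with at least 100 counts, and 1064 lower without a filter. By the study's criteria, 3 genes passed in SK-MEL-28 and 5 in A375 at a dispersion of 0.4, and 0 and 1 with an adjusted p.

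Across the lines, DESeq2 called 1 of the 10 genes (FN1), and 143 genes higher and 162 lower in all. Without a filter 57 were higher and 64 lower. Library totals, at least 100 counts and limma on FPKM each called 1 higher and 0 lower, and leaving out the line as a block called 0 and 0. The causes were not tested. No replicate block could be added within a line, because each condition has 1 library, and the pairing used here is by line. Low counts limit ZEB1 in SK-MEL-28 and SNAI2, CDH1 and CDH3 in A375.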
